A study of Mus musculus with 3 samples.

Results

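The 10 genes described here bring amino acids into the cell or encode the kinase mTOR and the partners that define its complexes. Their RNA was measured in mouse regulatory T cells (Tregs, the Foxp3-expressing T cells that restrain immune responses). They were chosen by symbol, and all 10 were found among the 55536 genes of the deposited tables. They are the transporters Slc7a5, Slc3a2, Slc1a5, Slc38a1, Slc38a2, Slc7a1 and Slc7a6, and Mtor, Rptor and Rictor of the mTOR complexes.

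The cells were primary inflammation-experienced Tregs of activated Treg origin, from mouse aged 12 weeks. There was 1 biosample, from which 3 libraries of polyadenylated RNA were made, labelled technical replicates 1 to 3 of biological replicate 1. All 3 libraries therefore form 1 group, no untreated cells were analysed here, and p-values measure only the spread between these libraries. The sources used here do not give strain, sex, the agent that caused the inflammation or the sorting gate.

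Neutral amino acids enter lymphocytes mainly through members of the solute carrier families. Slc7a5 (LAT1) and Slc7a6 are light chains that carry the transport activity, and each is joined to the glycoprotein heavy chain Slc3a2 (CD98), which brings it to the cell surface. Slc1a5 (ASCT2), Slc38a1 and Slc38a2 take up glutamine and small neutral amino acids, and Slc7a1 takes up arginine and lysine. Amino acids that reach the lysosome activate Rag GTPases, which recruit mTOR complex 1 through its subunit Rptor (raptor), whereas Rictor defines mTOR complex 2. In Tregs, mTOR signalling is known for its part in metabolic activation and suppressive function.

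Most of the TPM of Rictor, Rptor and Slc1a5 was not in transcripts annotated as coding. TPM (transcript abundance corrected for length and scaled to a fixed sum in each library) was deposited for each annotated transcript as well as for each gene. Transcripts annotated as retained intron, meaning that sequence normally spliced out is kept and no protein is assigned, held 88.9% ± 1.09 (SD, n = 3) of the TPM of Rictor and 68.4% ± 2.62 (SD, n = 3) of the TPM of Slc1a5. Rptor, with 26.1% of its TPM in coding transcripts, is taken up with the transcript shares further on. Sequences of Slc1a5 and Rictor are shown because they mark where the retained-intron transcripts with the highest TPM run into an intron.

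In Slc1a5 (ENSMUSG00000001918.17, chr7:16781340-16798274 on mm10, plus strand), transcript Slc1a5-202 keeps the whole 71-base intron between exons 7 and 8 of the 9 exons of the coding transcript Slc1a5-201. The sequences below are from GENCODE M21, 5′ to 3′ on the plus strand, with 20 exon bases in lower case on each side and the intron in capitals. The first spans chr7:16795933-16796043, and the second joins the same exon ends as the coding transcript does.
Slc1a5-202: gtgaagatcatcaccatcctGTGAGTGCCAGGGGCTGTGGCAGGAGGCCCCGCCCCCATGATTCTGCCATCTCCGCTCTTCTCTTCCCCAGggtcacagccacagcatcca
Slc1a5-201: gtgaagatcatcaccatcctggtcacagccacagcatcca
The intron begins with GT and ends with AG. Read from the start codon of Slc1a5-201, the frame of Slc1a5-202 met a stop codon that begins at base 2 of the intron, after 432 codons against 555 in the coding transcript. Of the 2807 bases of Slc1a5-202, 2736 are also exon of Slc1a5-201, so these 71 bases are the only sequence of its own.

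In Rictor (ENSMUSG00000050310.9, chr15:6708379-6800401 on mm10, plus strand), the 2 retained-intron transcripts with the highest TPM end inside introns of the 38-exon coding transcript Rictor-201. Rictor-204 runs from exon 25 for 1368 bases into an intron of 2390 bases, and Rictor-205 runs from exon 10 for 298 bases into an intron of 2934 bases. The next lines show the last 20 exon bases in lower case and the first 60 intron bases in capitals, at chr15:6779247-6779326 for Rictor-204 and chr15:6765100-6765179 for Rictor-205. Below each stands the spliced junction of Rictor-201 at that exon.
Rictor-204: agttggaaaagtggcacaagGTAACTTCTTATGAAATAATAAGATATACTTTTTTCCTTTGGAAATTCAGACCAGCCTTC
Rictor-201, exons 25 and 26: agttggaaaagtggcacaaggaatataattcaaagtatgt
Rictor-205: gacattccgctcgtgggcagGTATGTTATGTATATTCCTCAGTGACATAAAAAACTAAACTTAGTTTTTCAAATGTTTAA
Rictor-201, exons 10 and 11: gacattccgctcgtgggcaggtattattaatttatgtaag
Both intron stretches begin with GT. The frame of Rictor-204, whose exon 9 starts 10 bases later than in Rictor-201, met a stop codon after 278 codons, upstream of the junction shown. The frame of Rictor-205 met a stop codon that begins at intron base 36, after 308 codons against 1708 in the coding transcript.

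All 10 genes were detected, meaning that their TPM reached 1 in each of the 3 libraries, and all 10 also reached 10. Of 22028 protein-coding genes, 47.6% reached 1 and 35.5% reached 10. Across the 10 genes the median of the mean gene-level TPM was 36.4, beside 31.4 over the 10494 detected protein-coding genes.

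**Figure D1:**
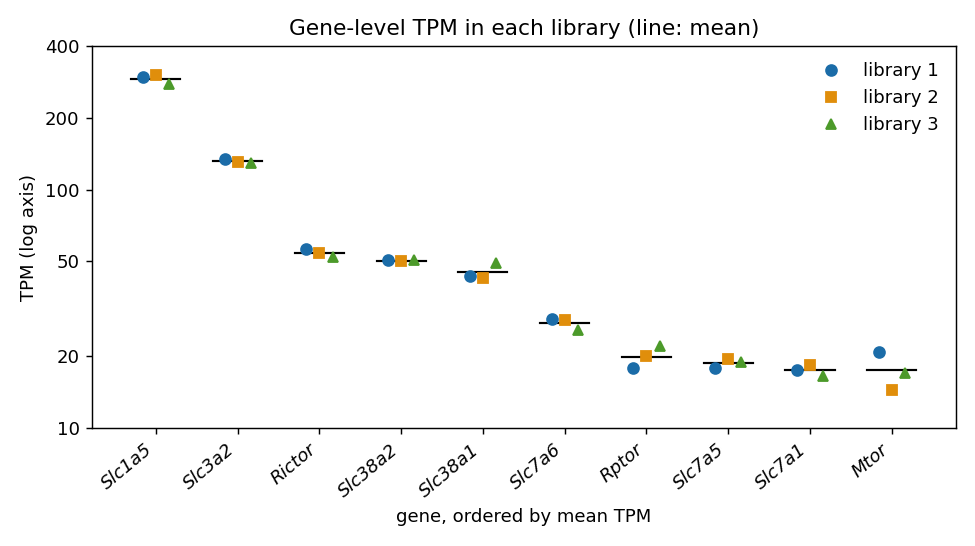
TPM of each gene (vertical log axis) in libraries 1 (circle), 2 (square) and 3 (triangle), with the mean as a line; genes are ordered by mean along the horizontal axis. Slc1a5 stands highest at 277.27 to 302.94, and the last 4 genes lie between 14.47 and 22 with ranges that overlap.

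Slc1a5, the glutamine and neutral amino acid exchanger, had the highest level. Its gene-level TPM was 295.92, 302.94 and 277.27 in libraries 1 to 3, which gives 292 ± 13.3 (SD, n = 3), above that of 95.7% of detected protein-coding genes. No library of any other of the 10 genes came near these values.

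Slc3a2, the CD98 heavy chain (ENSMUSG00000010095.13, chr19:8706882-8723369, minus strand), came next. Its TPM was 134.78, 130.81 and 128.78, or 131 ± 3.05 (SD, n = 3). It was followed by Rictor at 56.57, 54.0 and 52.04 TPM, or 54.2 ± 2.27 (SD, n = 3). The libraries of these 3 leading genes did not overlap.

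The glutamine carriers Slc38a2 and Slc38a1 are neighbours on chromosome 15 (ENSMUSG00000022462.7, chr15:96687392-96699730, and ENSMUSG00000023169.15, chr15:96571418-96642913, both minus strand). Slc38a2 was at 50.53, 50.15 and 50.47 TPM, or 50.4 ± 0.204 (SD, n = 3), a spread that widened once the gland signal in library 3, described further on, was taken out of the total. Slc38a1 was at 43.5, 42.59 and 49.26 TPM, or 45.1 ± 3.62 (SD, n = 3), with library 3 high. The libraries of the 2 genes did not overlap on this scale, but library 3 of Slc38a1 lay within 1 TPM unit of the lowest library of Slc38a2, and they overlapped with that signal out of the total.

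The light chain Slc7a6 (ENSMUSG00000031904.5, chr8:106168857-106198706, plus strand) was at 28.74, 28.5 and 25.75 TPM, or 27.7 ± 1.66 (SD, n = 3). Below it lay a cluster of 4 genes whose libraries overlap from each to the next, so that their order is not resolved.

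Rptor, the raptor subunit (ENSMUSG00000025583.15, chr11:119602905-119899576, plus strand), was at 17.81, 19.98 and 22 TPM, or 19.9 ± 2.10 (SD, n = 3). The LAT1 light chain Slc7a5 (ENSMUSG00000040010.10, chr8:121881150-121907694, minus strand) was at 17.8, 19.45 and 18.95 TPM, or 18.7 ± 0.846 (SD, n = 3). Library 1 was the lowest for both.

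The arginine and lysine carrier Slc7a1 (ENSMUSG00000041313.14, chr5:148327410-148399904, minus strand) was at 17.47, 18.43 and 16.5 TPM, or 17.5 ± 0.965 (SD, n = 3). Mtor, the kinase shared by both complexes (ENSMUSG00000028991.15, chr4:148448611-148557683, plus strand), was at 20.85, 14.47 and 17.04 TPM, or 17.5 ± 3.21 (SD, n = 3). Mtor had the widest relative spread of the 10 on this scale, a ratio of 1.44 between its highest and lowest library, with library 1 above and library 2 below every library of Slc7a1.

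The deposited lower and upper bounds of TPM, whose level is not stated, surround a posterior mean TPM and not the TPM itself. In 13 of the 30 values of these genes the TPM lay above the upper bound, and in 0 below the lower one. For Slc1a5, Slc3a2, Rictor and Slc38a2 this was so in all 3 libraries. The posterior means of Slc1a5 were 279.32, 282.65 and 262.74 TPM.

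Comparison of transporter subunits asked whether heavy and light chains stood at like levels. Genes of a pair were called apart when log2(TPM + 1) differed with 1 sign in all 3 libraries, and when neither the TPM ranges nor, library by library, the deposited bounds overlapped. In all 10 pairs were compared, and 8 were apart. With 3 libraries an exact permutation test that flips signs (two-sided) cannot go below p = 0.25, so no pair could reach 0.05, and that p (0.278 after Benjamini-Hochberg adjustment over the 10 pairs) was found for 9 of the 10.

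Slc3a2 exceeded both light chains examined here. Slc7a10, a further gene of the Slc7 family, was at 25.4 ± 4.14 TPM (SD, n = 3) and was not paired with Slc3a2. The difference to the heavy chain was -2.75 ± 0.09 (SD, n = 3) for Slc7a5 and -2.21 ± 0.06 (SD, n = 3) for Slc7a6. Between the light chains, Slc7a5 minus Slc7a6 was -0.54 ± 0.12 (SD, n = 3). The cationic carrier Slc7a1 also lay below Slc7a6, by -0.63 ± 0.05 (SD, n = 3).

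Among the glutamine carriers, Slc1a5 minus Slc38a2 was 2.51 ± 0.07 (SD, n = 3) on the log2(TPM + 1) scale. Slc38a1 minus Slc38a2 was -0.16 ± 0.11 (SD, n = 3) and was not called apart because the deposited bounds overlapped. Slc1a5 minus Slc7a5 was 3.89 ± 0.09 (SD, n = 3), the widest gap of the 10 pairs in gene-level TPM. With the M4 counts per kilobase, divided by M21 lengths, Slc7a5 minus Slc3a2 was wider (-3.09 against 2.94). The M4 counts level off at high expression. In library 1, Slc1a5 had 3296 of them against 17035 expected counts, and Slc3a2 had 2240 against 4537.

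Rictor exceeded the other mTOR genes at the gene level. Mtor minus Rictor was -1.59 ± 0.22 (SD, n = 3) and Rptor minus Rictor was -1.40 ± 0.20 (SD, n = 3). Mtor minus Rptor was -0.19 ± 0.36 (SD, n = 3), with Mtor above Rptor in library 1 and below it in libraries 2 and 3, and this pair was not apart (exact permutation p = 0.5).

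**Figure D2:**
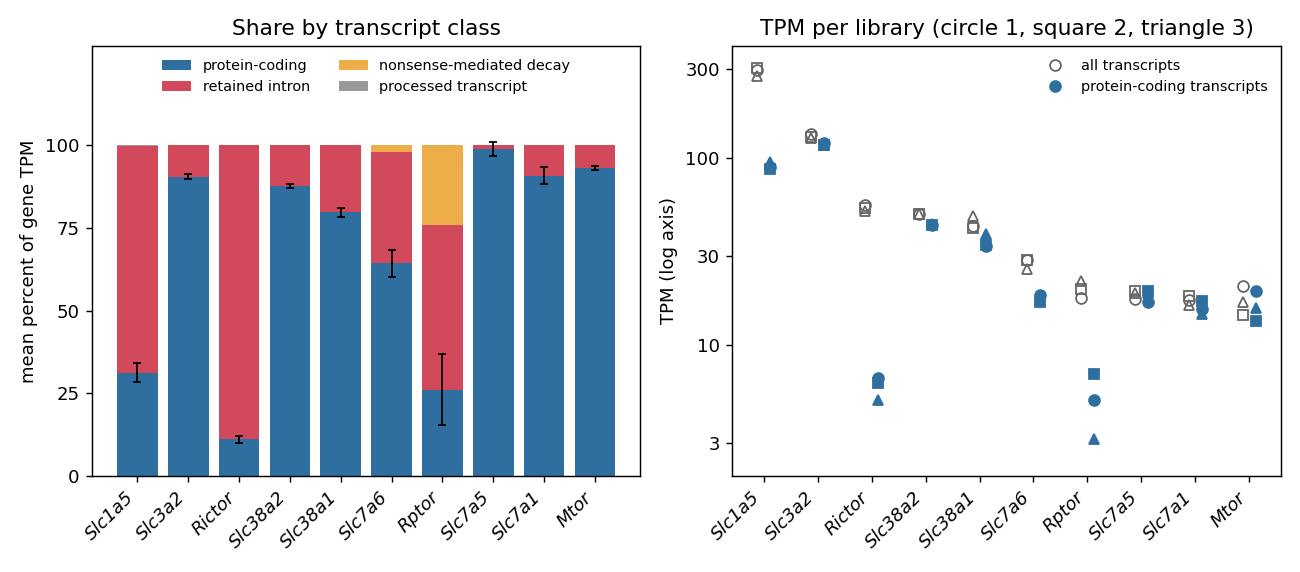
Left, mean percent of each gene's TPM (vertical axis) held by transcripts of each annotated class, with the SD of the coding share over 3 libraries as bars. Right, TPM on a log axis in each library for all transcripts (open) and coding transcripts (filled): the coding share is 11.1% for Rictor, 26.1% for Rptor and 31.2% for Slc1a5, and 64.3% or more for the other 7 genes.

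The order at the gene level did not carry over to coding transcripts. For Rictor, the coding transcript Rictor-201 was at 6.72, 6.25 and 5.13 TPM, which is 11.1% ± 1.09 (SD, n = 3) of the gene. The truncated Rictor-204, shown above, took 47.8% ± 3.36 (SD, n = 3), Rictor-205 took 26.7% ± 1.14 (SD, n = 3) and Rictor-202 took 10.4% ± 3.04 (SD, n = 3). All 3 libraries put Rictor-204 first.

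TPM corrects for length, and Rictor-201 is 9312 bases long against 3879 for Rictor-204 and 1211 for Rictor-205. In expected counts, the reads that the deposited model assigned, Rictor-201 held 27.3% ± 2.01 (SD, n = 3), Rictor-204 held 48.9% ± 4.82 and Rictor-205 held 8.27% ± 0.582. Rictor-202, 4695 bases long, held 12.9% ± 3.46, more than Rictor-205. In reads Rictor-204 thus led and coding Rictor-201 came next.

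For Slc1a5, the coding Slc1a5-201 was at 89.81, 87.87 and 95.35 TPM, or 91.0 ± 3.88 (SD, n = 3). Slc1a5-202, with the 71-base intron, was at 187.73, 195.58 and 162.19 TPM, or 182 ± 17.5 (SD, n = 3), and exceeded the coding transcript in every library. The 2 transcripts have nearly the same length, and in reads Slc1a5-202 held 65.9% ± 3.19 (SD, n = 3). The split between them rests on reads over the 71 bases, the junctions beside them and the first bases of Slc1a5-201, and how well short reads resolve it was not tested.

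Rptor was divided among 3 classes. Its coding transcripts held 28.7%, 35.3% and 14.4% of the TPM in libraries 1 to 3, or 26.1% ± 10.7 (SD, n = 3). Retained-intron transcripts held 49.8% ± 8.23 (SD, n = 3), spread over Rptor-210 with 21.4% ± 3.94, Rptor-203 with 15.9% ± 6.77 and Rptor-206 with 11.2% ± 7.21. Transcripts annotated to nonsense-mediated decay, the pathway that degrades RNAs with an early stop codon, held 24.1% ± 2.5 (SD, n = 3), mostly Rptor-211 with 21.7% ± 3.79. Library 3 had the highest gene-level TPM of Rptor and the lowest TPM of its full-length transcript Rptor-201, at 3.17 against 5.10 and 6.66 in libraries 1 and 2.

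In Slc7a6, retained-intron transcripts held 33.7% ± 1.62 (SD, n = 3), nearly all of it Slc7a6-207 with 31.8% ± 0.766. The complete coding transcript Slc7a6-201 held 32.3% ± 5.66 and the coding fragment Slc7a6-205, annotated without a complete end, 29.3% ± 3.77. Similar as these 3 shares are in TPM, Slc7a6-201 held 48.8% ± 6.49 of the reads, Slc7a6-207 41.1% ± 1.86 and the 616-base Slc7a6-205 6.84% ± 1.17.

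Slc7a1 shows that a coding label does not make a transcript complete. Its coding transcripts held 90.8% ± 2.49 (SD, n = 3), but Slc7a1-202, annotated without a complete end, held 69.7% ± 1.84 and the complete Slc7a1-201 held 13.8% ± 2.14. The complete transcript was at 2.0, 2.63 and 2.58 TPM. In reads the gap was narrower, with 49.9% ± 3.53 for the 1792-base Slc7a1-202 and 40.2% ± 4.58 for the 7179-base Slc7a1-201.

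The other carriers were mainly coding. The coding share was 90.4% ± 0.703 (SD, n = 3) for Slc3a2, 87.7% ± 0.500 for Slc38a2 and 79.7% ± 1.32 for Slc38a1. Slc3a2-201 held 56.3% ± 2.43 and the shorter coding Slc3a2-207 30.1% ± 1.89. In Slc38a1, coding Slc38a1-201, Slc38a1-203 and Slc38a1-207 held 39.2% ± 4.67, 28.4% ± 5.25 and 12.2% ± 1.26, and the retained-intron Slc38a1-204 held 14.1% ± 1.97. In Slc38a2, Slc38a2-201 held 87.7% ± 0.499 and the retained-intron Slc38a2-202 held 12.3% ± 0.499.

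Slc7a5 had the most uniform make-up, with Slc7a5-201 at 98.8% ± 2.07 (SD, n = 3). Mtor was 93.0% ± 0.523 coding, divided between the 58-exon Mtor-202 with 58.4% ± 6.19 and the 5-exon Mtor-201 with 34.6% ± 6.27. Mtor-201 was at 8.32, 4.0 and 6.17 TPM and Mtor-202 at 11.18, 9.46 and 9.58 TPM, so the wide spread of Mtor in TPM was wider in the short transcript. Mtor-201 is 1003 bases long against 8564 for Mtor-202, and it held 6.25% ± 1.62 of the reads against 92.6% ± 1.33.

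Retained-intron transcripts held over 50% of the TPM in 2 of the 10 genes, Rictor and Slc1a5, and in 4.90% of the 10494 detected protein-coding genes. All 10 genes have an annotated retained-intron transcript, and among the 6429 detected coding genes that do, 7.995% were over 50% and the median retained-intron share was 12.7%. The share in Rictor exceeded that of 99.5% of detected coding genes, the share in Slc1a5 that of 98.3% and the share in Rptor that of 95.1%. The other 7 genes stood between 43.5% and 88.7% on that scale, which also counts genes without an annotated retained-intron transcript. Of these 7, only Slc38a1 (20.3%) and Slc7a6 (33.7%) had a share above the 12.7% median of genes that have one. These ranks describe the deposited model values, and genes are not replicates.

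**Figure D3:**
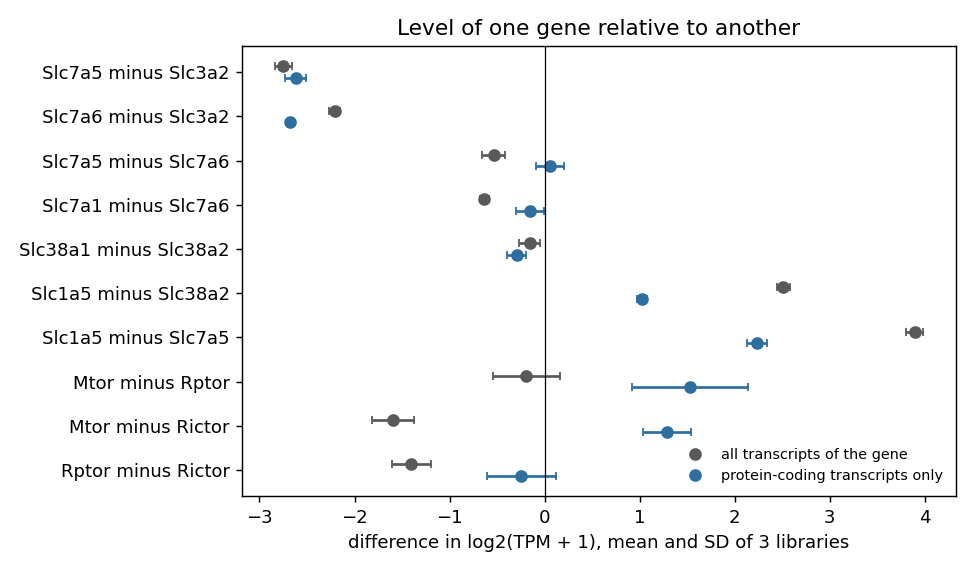
Difference in log2(TPM + 1) between the genes of each pair (horizontal axis, mean and SD of 3 libraries) for all transcripts (grey) and protein-coding transcripts only (blue). Mtor minus Rictor lies at -1.59 for all transcripts and at 1.29 for coding ones.

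Restricted to protein-coding transcripts, Mtor lay above Rictor by 1.29 ± 0.25 (SD, n = 3) on the log2(TPM + 1) scale, the opposite of the gene-level order. Mtor minus Rptor became 1.53 ± 0.61 and was apart, and Rptor minus Rictor shrank to -0.25 ± 0.36 and was no longer apart. Coding Mtor here includes the short Mtor-201, with 768 coding bases against 7647 in Mtor-202. Mtor-202 alone was at 11.18, 9.46 and 9.58 TPM. It still exceeded Rictor-201 (6.72, 6.25 and 5.13) and Rptor-201 (5.10, 6.66 and 3.17) in every library, but by less than all coding Mtor did. Slc7a5 minus Slc7a6 became 0.06 ± 0.15, which did not separate the 2 light chains. Slc7a1 minus Slc7a6 shrank from -0.63 to -0.15 ± 0.14, changed sign in library 2 and was no longer apart. Slc38a1 minus Slc38a2 became -0.29 ± 0.10 and was called apart. Calls on coding transcripts did not use the gene-level bounds, whose overlap had kept this pair from being called apart at the gene level. With incomplete transcripts left out as well, an alternative added after the data were seen, Slc7a5 lay above Slc7a6 by 0.99 ± 0.32 (SD, n = 3). In that setting Slc7a1 minus Slc7a6 was -1.54 ± 0.37 (SD, n = 3) and apart, wider than at the gene level.

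The excess of Slc3a2 over the light chains examined held on the coding scale, at -2.62 ± 0.11 for Slc7a5 and -2.68 ± 0.04 for Slc7a6 (SD, n = 3). Slc1a5 minus Slc38a2 fell from 2.51 to 1.03 ± 0.05 and remained apart. By coding TPM, Slc3a2 led at 121.18, 117.97 and 117.5 TPM, above the 87.87 to 95.35 TPM of Slc1a5. This lead depends on the shorter Slc3a2-207, with 909 coding bases against 1578 in Slc3a2-201. Slc3a2-201 alone, at 72.23, 74.77 and 74.99 TPM, lay below Slc1a5 in every library. Rictor and Rptor closed the order at 6.03 ± 0.817 and 5.11 ± 1.95 TPM (SD, n = 3), with overlapping libraries.

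The libraries were compared to see how far each gene varied between libraries of 1 biosample. Expected counts were scaled with TMM, edgeR's trimmed-mean normalisation, and the 3 libraries were set against Poisson counting noise in a chi-square test. Of the 10 genes, 8 differed at an adjusted p under 0.05, beside 77.2% of the 18253 genes tested and 84.8% of the 6731 genes whose mean count reached 1000, so that this count stands at the background.

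Rptor had the highest ratio with this scaling. Under total-count scaling Mtor did, with 1.23 against 1.18, and without library 3 it was 1.19 for Mtor against 1.12 for Rptor. The CPM of Rptor (counts scaled to the library total after TMM adjustment) was 50.9, 57.0 and 63.6 in libraries 1 to 3. Its ratio of highest to lowest was 1.25 (adjusted p = 1.91e-11, chi-square test with Benjamini-Hochberg adjustment over all genes tested). Slc7a5 followed with 36.1, 41.4 and 43.2 CPM and a ratio of 1.2 (adjusted p = 8.90e-06). Mtor ran 62.6, 52.6 and 58.1 CPM with a ratio of 1.19 (adjusted p = 1.01e-06), and library 2 was its lowest.

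Slc38a1 was at 128, 132 and 150 CPM, a ratio of 1.17 (adjusted p = 7.43e-16). Slc7a1 had a ratio of 1.13 (adjusted p = 0.0197), Slc38a2 1.09 (adjusted p = 2.38e-05), Slc3a2 1.05 (adjusted p = 0.0243) and Slc1a5 1.04 (adjusted p = 0.00149). Of the 8 genes called, 6 were highest in library 3, as were 30.8% of all genes called. Under total-count scaling it was 3 of 7, for which no matching share over all genes is given. Slc7a6 (adjusted p = 0.0769) and Rictor (adjusted p = 0.171) did not pass the test.

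**Figure D4:**
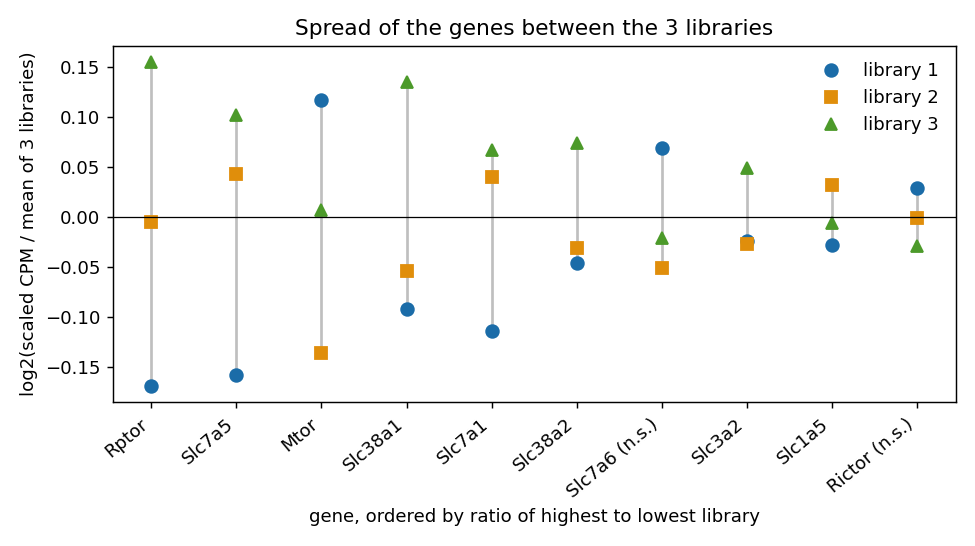
log2 of scaled CPM in each library over the mean of the 3 libraries (vertical axis) for each gene, ordered by the ratio of highest to lowest library; n.s. marks an adjusted p of 0.05 or more. Library 3 (triangle) is highest for 6 of the 8 genes called (30.8% of all genes called), and with this scaling Rptor spans the widest range with a ratio of 1.25.

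By the median, these ratios were somewhat smaller than those of abundant genes in general. The median ratio was 1.09 over the 9 of the 10 genes whose mean count reached 1000, beside 1.15 over all 6731 such genes. A ratio of at least 1.1 was found in 68.4% of those genes, one of at least 1.2 in 32.7%, one of at least 1.5 in 3.33% and one of at least 2 in 0.475%. Of the 9, 4 reached 1.1, 1 reached 1.2 and 0 reached 1.5. Call by call the test was unstable: of the 8 genes, only Mtor and Rptor kept their call under total-count scaling, the separate count table against annotation M4 and each omission of a library. The share of all tested genes called was 77.2% with DESeq2 size factors, 77.8% with total-count scaling, 50.1% with no count filter, 52.1% with the M4 counts, and 57.7%, 49.1% and 60.9% without library 1, 2 and 3. Without library 3, Slc3a2 (adjusted p = 0.918), Slc38a1 (0.289) and Slc38a2 (0.687) lost it. Without library 1, Slc7a5 (0.346) and Slc7a1 (0.746) lost it, and without library 2 Slc1a5 (0.255) did.

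Likeness over 3 libraries is a loose measure, taken as the Euclidean distance between centred log2 CPM. Among the genes of the pathway lists given next, Mthfd2, a mitochondrial one-carbon enzyme, was nearest to Slc7a5 at 0.02, with 31 of 6730 abundant genes as near. Rptor was nearest to Phgdh and Slc7a5 (0.07 each), Mtor to the alanine transfer RNA ligase Aars (0.04), Slc38a2 to the serine hydroxymethyltransferase Shmt2 (0.02), Slc38a1 to Eif4ebp2 (0.07), Slc3a2 to the autophagy kinase Ulk1 (0.01), Slc7a1 to Rragc (0.04) and Slc1a5 to Mapkap1 (0.04). The second nearest were Phgdh to Slc7a5 (0.07), Psph to Mtor (0.05), Slc3a2 to Slc38a2 (0.03), Shmt2 to Slc38a1 (0.07), Nprl2 to Slc7a1 (0.04) and Slc38a10 to Slc1a5 (0.05). Between 21 and 612 of the abundant genes were as near as each of these, so the measure singles out none of them.

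Depth and purity bear on all of these values. Libraries held 31665170 to 37810591 expected counts, of which each of the 10 genes had 864 or more. All 8 genes used as Treg markers were detected, with a summed TPM of 5920 to 6247. They were Foxp3, Il2ra, Ctla4, Ikzf2, Cd4, Cd3d, Cd3e and Trac. Cd4, Cd3d, Cd3e and Trac are shared with other T cells, so the sum alone does not separate Tregs from these. Of other cells, the myeloid markers were detected in 0 of 5 genes, with Cd14 at 0 in all 3 libraries, and the NK cell markers in 1 of 3. B cell markers were detected in 4 of 4 genes, with a summed TPM of 53.2 to 60.3, CD8 T cell markers in 1 of 2 (16.9 to 26.5) and erythroid markers in 3 of 4 (16.4 to 33.4). Their part in the results was not tested, and in bulk RNA fewer cells of a type and less RNA per cell cannot be told apart. In library 3, 10 salivary gland genes took 5.88% of all TPM, against 0.000507% and 0.00117% in libraries 1 and 2, which lowers every other TPM there. With those genes out of the total, Slc38a1 reached 52.3 TPM in library 3 and overlapped the 50.2 to 53.6 of Slc38a2, while Slc38a2 itself went from 50.4 ± 0.204 to 51.4 ± 1.91 (SD, n = 3). No pair changed its call. Another gene shared exon bases with only 1 of the 10 genes. It was Rptoros, antisense to Rptor over 84 bases, at 1.18, 0.61 and 0.45 TPM. Whether reads were assigned by strand is not stated.

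**Figure D5:**
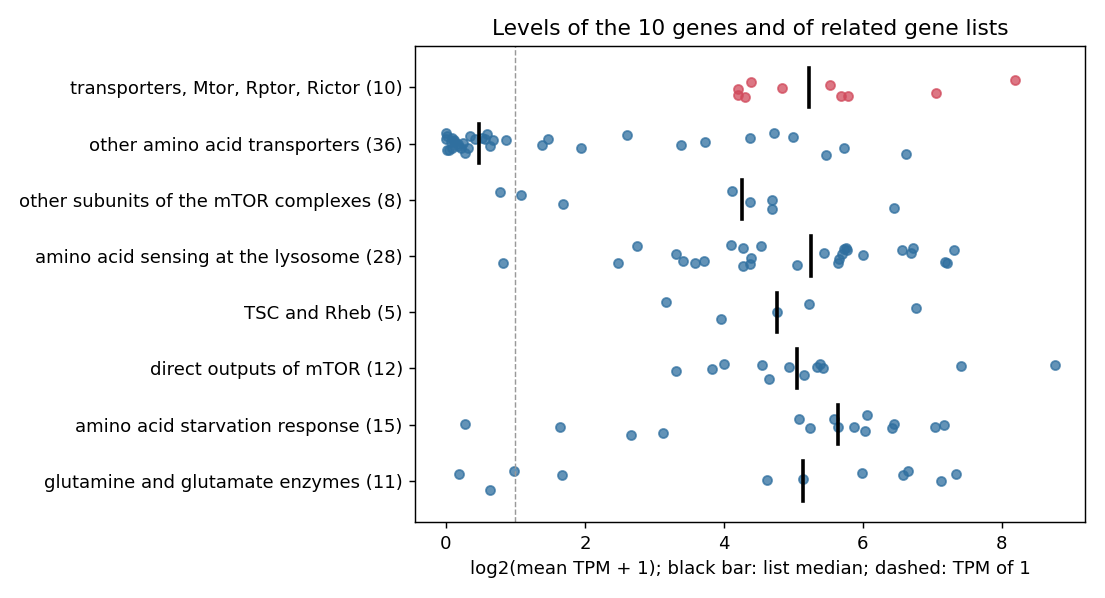
Mean TPM of each gene as log2(TPM + 1) on the horizontal axis, for the 10 genes (red) and 7 related lists (blue; number of genes in brackets), with the list median as a black bar and a TPM of 1 as a dashed line. The median of the 36 other amino acid transporters lies below the dashed line, at a TPM of 0.387.

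Another 7 lists place the 10 genes in their pathway. Of 36 other amino acid transporters, 12 were detected, and their median TPM was 0.387. The 4 highest were Slc38a10 at 96.9 ± 6.71 TPM, the taurine carrier Slc6a6 at 51.9 ± 13.2, the neutral amino acid carrier Slc43a2 (LAT4) at 43.2 ± 5.02 and the lysosomal arginine sensor Slc38a9 at 30.9 ± 3.11 (SD, n = 3). Slc38a3 and Slc6a14 had 0 counts in every library, where up to 3 counts could be missed. Slc43a1 was at 3.92, 1.35 and 3.24 TPM, with library 2 low. Of the 36, 22 had enough counts to test and 18 differed between libraries, where 77.2% of all genes tested did; that share is the background for the counts of each list below.

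Of the 8 other subunits and partners of the mTOR complexes, 6 were detected and all 8 differed between libraries, beside 77.2% of all genes tested. Of these 8, 6 were highest in library 2, as were 38.4% of all genes called. Mapkap1 (Sin1, of complex 2) led at 86.6 ± 6.92 TPM (SD, n = 3). Akt1s1 (PRAS40, an inhibitor in complex 1) was at 24.9 ± 4.05, the assembly factors Telo2 and Tti1 at 24.8 ± 4.52 and 19.9 ± 2.20, and Mlst8, shared by both complexes, at 16.4 ± 0.729. Mlst8 was thus near Mtor itself. The complex 2 subunits Prr5l and Prr5 were at 2.22 ± 1.30 and 1.12 ± 0.803, and Deptor, an inhibitor of both complexes, at 0.51, 0.54 and 1.12 TPM.

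The machinery that senses amino acids at the lysosome was nearly complete, with 27 of 28 genes detected and a median TPM of 37.3. The Ragulator subunits Lamtor5 and Lamtor2 were at 159 ± 16.2 and 147 ± 10.7 TPM, the GATOR2 subunit Sec13 at 144 ± 13.6 and the leucine-sensor family member Sesn1 at 105 ± 7.66 (SD, n = 3). At the low end stood the GATOR2 subunit Wdr59 at 4.58 ± 0.589 and the folliculin partner Fnip2 at 0.33, 1.02 and 0.94 TPM. Of the 28, 26 differed between libraries, and 16 of the 26 were highest in library 2, beside the same backgrounds of 77.2% and 38.4%.

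All 5 genes of the TSC complex and Rheb were detected, and 4 differed between libraries. Rheb, the GTPase that activates complex 1, was at 108 ± 6.29 TPM (SD, n = 3). The subunits of its inhibitor were at 36.3 ± 6.69 for Tsc2, 26.1 ± 3.50 for Tsc1 and 7.99 ± 1.60 for Tbc1d7, and the relative Rhebl1 was at 14.6 ± 4.79. Tsc2 was low in library 1, at 28.81 TPM against 41.57 and 38.66.

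All 12 genes listed as direct outputs of mTOR were detected, with a median TPM of 32.2, and 9 differed between libraries. The list is wider than its name and includes steps further downstream, such as Rps6 and Eif4e. The ribosomal protein Rps6 was at 434 ± 60.4 TPM, the cap-binding factor Eif4e at 169 ± 14.7, the autophagy factor Atg13 at 42.2 ± 6.29 and the S6 kinase Rps6kb2 at 40.6 ± 3.21 (SD, n = 3). Sgk1, a kinase downstream of complex 2, was at 16.98, 7.31 and 15.23 TPM, with library 2 low, and Eif4ebp3 was lowest at 8.96 ± 1.75. RNA levels of these genes give no measure of kinase activity.

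Of 15 genes of the amino acid starvation response, 14 were detected, with a median TPM of 48.9, and 13 of 14 tested differed between libraries. The initiation factor Eif2s1 was at 143 ± 5.30 TPM, the serine synthesis enzyme Phgdh at 130 ± 11.4, the transcription factor Atf4 at 86.3 ± 2.31 and the asparagine transfer RNA ligase Nars at 84.5 ± 4.83 (SD, n = 3). Trib3 was at 2.13 ± 0.435 TPM, and Chac1 at 0.40, 0.0 and 0.24 TPM was not detected.

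Of 11 enzymes that handle glutamine, glutamate or arginine, 8 were detected. The ornithine decarboxylase Odc1 was at 220.22, 126.19 and 136.44 TPM, with library 1 well above the others. Glutamate dehydrogenase Glud1 was at 99.4 ± 4.38 TPM and the aspartate transaminase Got2 at 94.2 ± 5.74 (SD, n = 3). The glutaminase Gls2 was at 1.11, 0.12 and 0.43 TPM, Gpt2 at 0.78, 0.43 and 1.69, and the arginase Arg2 at 0.07, 0.30 and 0.06. Of 10 tested, 8 differed between libraries.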

How the data were processed

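Polyadenylated RNA was measured in 3 libraries of 1 biosample. Genes were quantified on mm10 against GENCODE M21, per the labels. The deposited gene tables hold expected counts and TPM with a posterior mean TPM and its bounds (values on the TPM scale, level not stated), per the file headers. The deposited transcript tables add each transcript's percent of its gene's TPM. A further deposited table holds whole-number counts against annotation M4, which level off at high expression. The sources used here name no aligner or counting program.

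All 55536 identifiers matched the M21 annotation, which gave transcript classes and sequences. Transfer RNA and spike-in rows, 0.170%, 0.170% and 0.218% of expected counts in libraries 1 to 3, stayed out of library sizes and tests. Expected counts were rounded, scaled by TMM (edgeR 4.0.16, R 4.3.3) and tested with a chi-square test over all genes whose mean count reached 10, adjusted by Benjamini-Hochberg at 0.05. DESeq2 1.42.0 gave alternative size factors. Python 3.11.15, numpy 2.4.6, pandas 2.3.3, scipy 1.17.1 and matplotlib 3.10.9 did the rest.

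Named were all 10 genes, all other mTOR subunits, in each other list the 4 highest and 2 lowest genes by mean TPM and any gene whose TPM ratio reached 2 at a mean count of 50, and transcripts with at least 10% of a gene's TPM. For likeness, the 2 nearest list genes were taken for each gene called. Some items that this rule names are not reported here. Genes and lists were chosen with earlier results of these data known.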

Additional observations from a re-analysis of the deposited data

How the results depend on the processing

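Of the 18253 genes tested, 14094 differed between libraries. With the M4 counts it was 6286 genes, and with 1 library left out 9267 to 11076. DESeq2 size factors, total-count scaling and no count filter gave 14084, 14202 and 19459. Among the 10 genes, 8 were called, and 6 to 8 under every alternative run. Total-count scaling lost Slc3a2, Slc38a2 and Slc7a1 and gained Slc7a6 and Rictor, and the M4 counts lost Slc3a2 and Slc7a1. Of 10 pairs, 8 were apart, and 7 to 9 under the alternatives. Calls on coding transcripts and on the M4 counts per kilobase did not use the gene-level bounds, so they were less strict. Mtor minus Rictor reversed from -1.59 to 1.29 with protein-coding transcripts only and with complete ones only. Both of these settings count the short Mtor-201 as coding Mtor. Slc7a5 minus Slc7a6 went from -0.54 to 0.057 with protein-coding transcripts only, where signs were mixed and the pair was not apart. It reversed to 0.99 with complete ones only. Without length correction it was -0.07 and not apart. The 2 coding-transcript settings drop the retained-intron TPM by construction. Mtor minus Rptor, not apart in gene-level TPM over all 3 libraries, changed sign between settings. It was apart without library 1 (-0.39), with the M4 counts per kilobase (0.46), with protein-coding transcripts only (1.53) and with complete ones only (1.56). All 10 genes stayed detected in every setting. No paired analysis was possible because there is 1 group. Depth does not limit the levels of the 10 genes, but transcript shares rest on how the deposited model divided reads over shared exons.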
